A study of Mus musculus with 20 samples.

Results

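The genes described here are 52 members of enzyme families that write or erase chemical marks on histones and DNA. They were chosen by their symbols and matched to gene identifiers through a GRCm38 annotation. The 52 symbols all matched, out of 55573 gene identifiers counted. They were grouped by what they do into 10 lysine acetyltransferases, 11 zinc-dependent histone deacetylases, 7 sirtuins, 15 lysine methyltransferases, 3 lysine demethylases and 6 genes of DNA methylation. The 51 enzymes other than *Uhrf1* had enough reads to be tested, among 13784 tested genes.

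RNA was sequenced from the livers of 20 male mice in 4 groups of 5. Titan mice (DU6) descend from a line selected over many generations for high body mass, and control mice are of the unselected line FZTDU from the same base population. Livers were taken at 11 weeks and at 19–21 weeks of age, and both lines ate the standard breeding diet at will. Neither line is inbred, so that mice of a group differ genetically among themselves, and a difference between the lines covers every locus at which they diverged.

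Acetyltransferases place acetyl groups, drawn from acetyl-CoA, on histone lysines. Deacetylases and the NAD-dependent sirtuins take such groups off, some of them from other substrates. Lysine methyltransferases use S-adenosylmethionine, and the mark they leave is tied to active promoters and enhancers (H3K4), to transcribed gene bodies (H3K36) or to silenced chromatin (H3K9 and H3K27). DNA methyltransferases copy or establish methyl groups on CpG cytosines, UHRF1 guides the copying enzyme to replicated DNA, and TET enzymes oxidise these groups. In the liver the cofactors of all of these reactions come from intermediary metabolism, and *Kat2a* is the gene among them that the study singled out, for its genetic differentiation in Titan.

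Reads on genes ranged from 6794935 to 23295028 per mouse, with a median of 12547300. By group the medians were 14283662 in young control, 13971374 in young Titan, 11218712 in older control and 9524930 in older Titan livers. The older Titan libraries were thus the shallowest by median, with at most 11464698. Levels are given as CPM, the count of a gene relative to the library's gene reads after scaling by TMM factors, and differences between groups as log2 fold changes with standard errors (SE) from edgeR's quasi-likelihood test, adjusted by Benjamini–Hochberg over all 13784 genes. A gene was called at an adjusted p under 0.05. The 8 hepatocyte markers together, among them *Alb*, *Apoa1* and *Cps1*, summed to 70220 to 104800 CPM in the livers. At 11 weeks 3 of these 8 were called lower in Titan (37.5%, against 7.7% of all genes). The median of their sum at that age was 88720 CPM in control and 92930 CPM in Titan livers, so the sum was not lower in Titan. At 19–21 weeks none of the 8 was called (against 9.12% of all genes), with medians of 82840 and 83720 CPM. The 10 markers of T, B and NK cells summed to 1.54 to 6.80 CPM. In 5 libraries over 33.3% of the uniquely mapped reads lay outside annotated exons (34.7% to 41.96%, against 18.4% to 29.8% in the others), namely control replicate 4 and Titan replicate 1 at 11 weeks, and control replicate 4 and Titan replicates 3 and 4 at 19–21 weeks. Results that lean on them are given with and without these 5.

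Upstream sequence is shown for 3 enzymes that the results turn on, as the 250 bases before the RefSeq start (GRCm38.p6, gene strand, 5′ to 3′) with each CpG in capitals. *Kat2a* lies at chr11:100704746-100712465 on the minus strand. *Ezh1*, the H3K27 methyltransferase called lower in young Titan livers, lies at chr11:101191115-101226463 on the minus strand, 478.65 kb from *Kat2a*. *Kmt2d*, the H3K4 methyltransferase called higher in the older Titan livers, lies at chr15:98831669-98871204 on the minus strand. The 3 windows end at the annotated start of the gene or within 2 bases of it.
Kat2a, chr11:100712468-100712717: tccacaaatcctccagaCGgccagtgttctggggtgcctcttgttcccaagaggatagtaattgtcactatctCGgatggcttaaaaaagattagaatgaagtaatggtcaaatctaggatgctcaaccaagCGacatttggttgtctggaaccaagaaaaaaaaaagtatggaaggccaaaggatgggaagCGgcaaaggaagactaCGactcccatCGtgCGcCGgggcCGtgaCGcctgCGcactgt
Ezh1, chr11:101226464-101226713: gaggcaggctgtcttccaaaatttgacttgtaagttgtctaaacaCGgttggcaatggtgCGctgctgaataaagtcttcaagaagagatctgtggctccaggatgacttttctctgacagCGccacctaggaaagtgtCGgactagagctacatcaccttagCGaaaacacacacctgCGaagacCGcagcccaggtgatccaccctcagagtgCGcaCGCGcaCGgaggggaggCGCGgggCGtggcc
Kmt2d, chr15:98871206-98871455: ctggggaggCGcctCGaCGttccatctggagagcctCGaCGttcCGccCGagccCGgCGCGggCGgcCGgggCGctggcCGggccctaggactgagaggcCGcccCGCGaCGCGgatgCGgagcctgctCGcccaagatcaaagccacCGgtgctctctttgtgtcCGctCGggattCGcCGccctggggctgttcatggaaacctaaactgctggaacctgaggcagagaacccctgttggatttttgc
The *Kat2a* window holds 11 CpG, the *Ezh1* window 14 and the *Kmt2d* window 26, against a median of 6 over 27025 genes with such a window. Of the 52 enzymes 44 matched the RefSeq table by symbol (not *Kat6a*, *Hdac1*, *Hdac3*, *Hdac10*, *Kmt2b*, *Setd1b*, *Nsd1* and *Kdm6b*). Their median was 17 CpG, with 25.5 in the 12 methyltransferases matched. For 32 of the 44 the RefSeq start lay within 250 bases of the annotated start, and for *Sirt1* 42669 bases away. Of several starts, the nearest to the annotated one was taken for an enzyme and the first listed for all genes. The 27025 genes were not limited to those expressed in liver. The GC box GGGCGG, on either strand, was in 27 of 44 windows (61.4%), against 32.9% of all genes. The CCAAT box, on either strand, was in 19 (43.2% against 34.5%) and TATAAA, on either strand, in 2 (4.55% against 13%), those of *Hdac8* and *Hdac9*. *Kmt2d* carried the GC box and *Kat2a* and *Ezh1* carried none of these 3 motifs. Methylation of these CpG was not measured here.

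Per kilobase of exon, the 52 enzymes had a median level of 3.61 CPM, against 3.10 over the tested genes, so that as a set they sat in the middle of the liver transcriptome (median percentile 53.8). The scale in this paragraph is the mean over the 20 mice in CPM per kilobase. *Kat2b* (PCAF), the paralogue of *Kat2a*, was the highest of all at 19.9 (16.8 to 23.7 over the mice), and *Kat6b* the lowest acetyltransferase at 1.98. *Kat2a* itself had 5.30, near the median of its class at 5.29. Among deacetylases, *Hdac11*, the only class IV enzyme, led with 11.2 (9.16 to 14.5), while *Hdac9*, a class IIa enzyme known from muscle and brain, closed the class at 0.123. *Hdac3*, the catalytic subunit of the NCoR corepressor complex and a known regulator of hepatic lipid genes, had 7.84. Of the sirtuins, mitochondrial *Sirt3* was the highest at 9.55 and nuclear *Sirt6* the lowest at 0.887. *Nsd1*, which dimethylates H3K36, led the methyltransferases with 12.6 (11.4 to 13.9), and *Suv39h1*, an H3K9 trimethylase of constitutive heterochromatin, was the lowest at 1.04. *Kdm4a* led the 3 demethylases with 6.10 and *Kdm1a* (LSD1) was the lowest with 4.35. *Tet3* led the genes of DNA methylation with 2.71, and *Uhrf1*, which is known to follow cell division, had 0.107, with 2 to 17 reads per mouse.

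**Figure D1:**
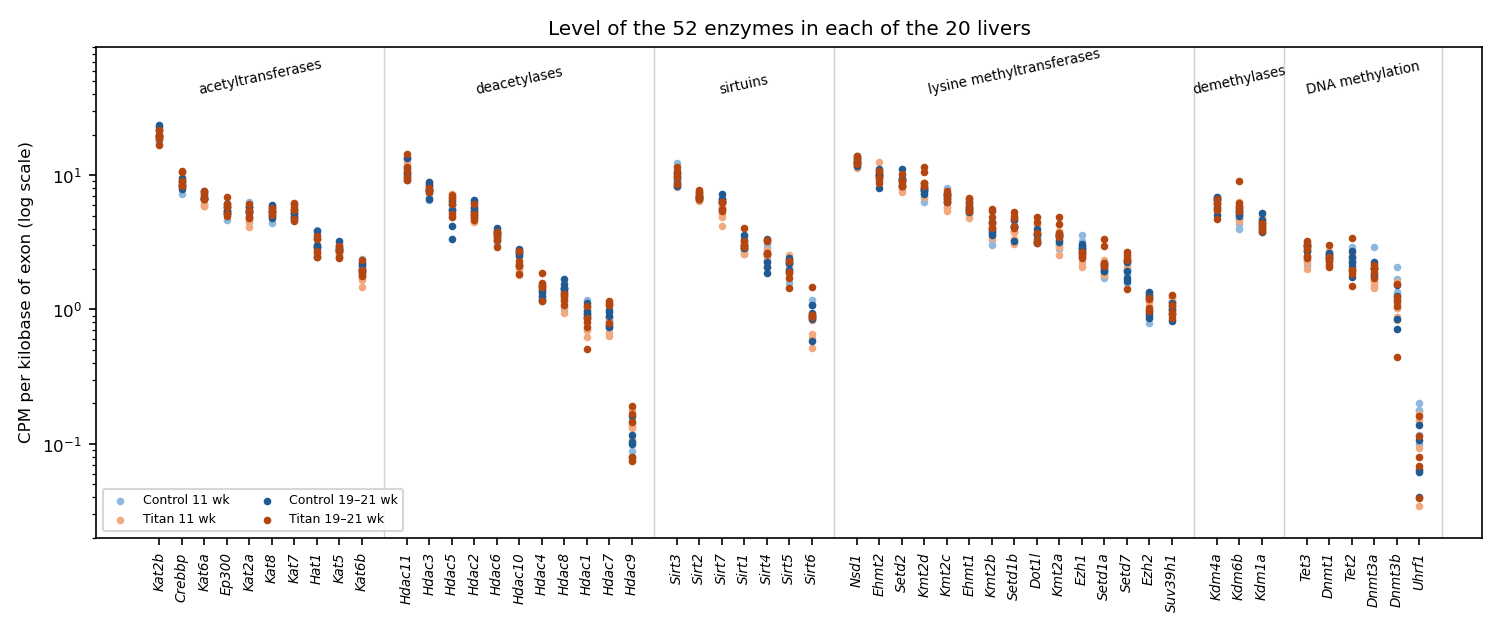
Level of each of the 52 enzymes in CPM per kilobase of exon (log axis), by class and in order of level within a class, with 1 point per mouse coloured by group. *Kat2b* stands highest at 16.8 to 23.7, *Hdac9* and *Uhrf1* lie below 0.3, and for most genes the 4 groups lie on top of each other.

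The enzymes also varied less between mice of a group than all tested genes did. No comparison with all genes in this paragraph was matched for read count. The SD within groups, on the log2(CPM + 0.5) scale, had a median of 0.149 over the 51 tested enzymes (0.0713 for *Nsd1* to 0.443 for *Dnmt3b*), against 0.223 over all tested genes. The 95% confidence interval of the difference between the lines lay wholly within 1.5-fold for 45 of 51 enzymes at 11 weeks (88.2%, against 56.3% of all genes) and for 47 at 19–21 weeks (92.2% against 56.5%). Those it did not bound at 11 weeks were *Hdac1*, *Hdac9*, *Hdac10*, *Sirt6*, *Dnmt3a* and *Dnmt3b*, and at 19–21 weeks *Hdac1*, *Hdac9*, *Sirt6* and *Dnmt3b*. In whole liver, fewer cells of a type and less RNA per cell cannot be told apart.

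At 11 weeks, the question was how livers of young Titan mice differ from controls. *Hdac10*, *Ezh1* and *Dnmt3a* were lower in Titan and no enzyme was called higher, although *Hdac3* was called higher under 8 of 30 alternatives (log2 fold change 0.21 ± 0.07 SE, adjusted p = 0.0569 in the edgeR fit reported here). Of all tested genes, 14.9% were called, 7.23% as higher and 7.7% as lower, so that 3 of 51 enzymes lower was a share near the background. At an unadjusted edgeR p under 0.05, 10 enzymes were lower and 1 higher (21.6% of them, against 27.5% of all genes). The median log2 fold change of the enzymes was -0.05, with a range from -0.49 to 0.33, beside -0.02 for all genes, and without control replicate 2 the median was 0.00. The median size of the difference was 0.125 on the log2 scale for the enzymes and 0.176 for all genes.

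*Hdac10*, a class IIb deacetylase that removes acetyl groups from the polyamine spermidine, had the smallest p at 11 weeks. The 5 young control livers held 9.11, 9.33, 8.67, 8.72 and 9.24 CPM, and the 5 young Titan livers 7.10, 6.09, 6.71, 7.05 and 6.47 CPM. The groups did not overlap, as was true of 3 of 51 enzymes and of 11.9% of all genes. This was a log2 fold change of -0.43 ± 0.10 SE (95% interval -0.64 to -0.22), with an adjusted p of 0.00587 in edgeR's test. At 19–21 weeks control livers held 9.01, 9.57, 8.96, 7.25 and 8.47 CPM and Titan livers 7.07, 9.18, 7.78, 7.42 and 6.20 CPM. There the groups overlapped, and the log2 fold change of -0.21 ± 0.10 SE did not pass (edgeR adjusted p = 0.238).

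*Ezh1*, the form of the Polycomb H3K27 methyltransferase that resting tissues express, was next. Young control livers held 24.1, 26.8, 20.6, 20.2 and 22.1 CPM, and young Titan livers 21.1, 18.9, 15.4, 18.2 and 16.6 CPM. Titan replicate 1 lay above the lowest 2 control livers, and all 5 Titan livers lay below the control median. The log2 fold change was -0.33 ± 0.09 SE (-0.52 to -0.15, edgeR adjusted p = 0.0138). Older control livers held 22.2, 20.9, 19.9, 21.3 and 22.8 CPM and older Titan livers 19.8, 19.2, 17.9, 18.5 and 19.5 CPM. These groups narrowly did not overlap, but the log2 fold change of -0.17 ± 0.09 SE was not called (edgeR adjusted p = 0.253). *Ezh2*, its paralogue of dividing cells, differed by 0.02 ± 0.14 SE at 11 weeks.

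*Dnmt3a*, a DNA methyltransferase that sets new CpG methylation, was the last enzyme called at 11 weeks. Young control livers held 33.5, 48.9, 24.5, 34.0 and 36.5 CPM, and young Titan livers 23.9, 25.2, 27.3, 28.9 and 26.7 CPM. The control livers were spread widely, and control replicate 3 lay within the Titan range. The log2 fold change was -0.42 ± 0.13 SE (-0.69 to -0.16, edgeR adjusted p = 0.0263). Without control replicate 2, the highest liver, it was -0.28 with an adjusted p of 0.0883, without control replicate 5 or Titan replicate 1, 2 or 5 the adjusted p lay between 0.0501 and 0.0686, and without the 5 libraries rich in reads outside exons it was -0.39 with an adjusted p of 0.141. At 19–21 weeks control livers held 29.4, 30.4, 33.9, 33.6 and 37.7 CPM and Titan livers 35.9, 33.9, 31.4, 33.5 and 28.4 CPM. These ranges overlapped almost wholly, with a log2 fold change of -0.02 ± 0.13 SE (-0.28 to 0.25). The other genes of DNA methylation that were tested had log2 fold changes of -0.46 (*Dnmt3b*) to -0.05 (*Dnmt1*, the maintenance enzyme) at 11 weeks and none was called.

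*Kat2a* (GCN5), the acetyltransferase subunit of the SAGA and ATAC coactivator complexes, was not called at either age. Young control livers held 21.5, 15.6, 20.01, 22.0 and 18.8 CPM, and young Titan livers 18.8, 14.4, 16.4, 15.8 and 17.3 CPM. The 5 Titan livers lay below the control median, and control replicates 2 and 5 lay within the Titan range. In edgeR's test, Titan had a log2 fold change of -0.24 ± 0.10 SE (-0.44 to -0.04, adjusted p = 0.0943). Leaving out control replicate 2 gave -0.31 with an adjusted p of 0.0219, so that 1 liver decided this call. At 19–21 weeks control livers held 18.9, 20.2, 18.6, 20.03 and 18.6 CPM and Titan livers 16.7, 16.9, 21.3, 19.1 and 18.1 CPM, which overlapped. The log2 fold change there was -0.06 ± 0.10 SE (-0.27 to 0.14, edgeR adjusted p = 0.736). The change of this difference with age was 0.18 ± 0.14 SE (edgeR adjusted p = 0.753).

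**Figure D2:**
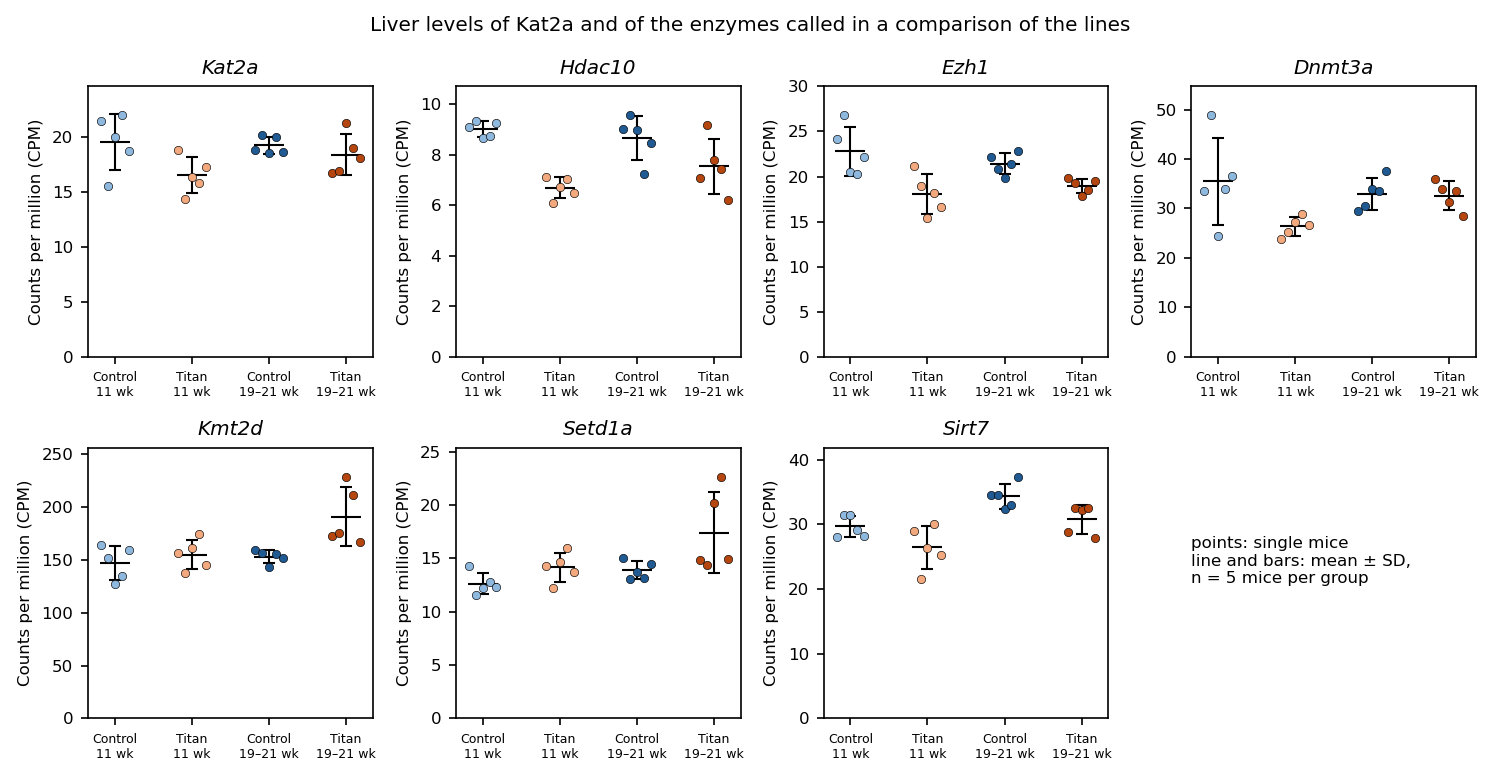
CPM in each liver for *Kat2a* and the 6 enzymes called in a comparison of the lines, with the mean and SD of 5 mice per group. *Hdac10* separates the young groups (8.67 to 9.33 CPM in control and 6.09 to 7.10 in Titan), and *Kmt2d* the older ones, where 2 Titan livers stand above 200 CPM.

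At 19–21 weeks, the same comparison in older mice called a single enzyme. *Kmt2d* was higher in Titan and no enzyme was called lower, while 9.12% of all genes were called, 4.24% as higher and 4.88% as lower. By unadjusted edgeR p under 0.05, 4 enzymes were higher (*Kmt2d*, *Kmt2b*, *Setd1a* and *Kdm6b*) and *Sirt5* was lower, which was 9.8% of them against 24.1% of all genes. The enzymes' median log2 fold change was 0.03, with a range from -0.27 to 0.32, beside 0.01 for all genes, and without the 5 libraries it was -0.05. Groups of 3 of 51 enzymes did not overlap (*Kmt2d*, *Hdac8* and *Ezh1*), against 7.62% of all genes.

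*Kmt2d* (MLL4), which monomethylates H3K4 at enhancers, was measured with 1179 to 3455 reads per mouse. Older control livers held 159, 157, 143, 155 and 152 CPM, and older Titan livers 173, 176, 229, 212 and 167 CPM. Every Titan liver lay above every control liver, with replicates 3 and 4 well above the other 3. The log2 fold change was 0.32 ± 0.09 SE (0.12 to 0.52, edgeR adjusted p = 0.0393). Those 2 livers were also the 2 of the group with over 33.3% of reads outside exons (41.96% and 35.1%), and without the 5 such libraries the log2 fold change was 0.17 with an adjusted p of 0.408. Control replicate 4 of that age had 41.2% of reads outside exons and 155 CPM of *Kmt2d*, inside the control range. The call was also lost without Titan replicate 3 alone, Titan replicate 4 alone or any 1 of the 5 older control livers. In a fit with the share of reads outside exons as a covariate, no enzyme was called at this age, and 1029 genes were called over all in place of 1257. Whether that share caused the difference was not tested. At 11 weeks control livers held 165, 152, 127, 135 and 159.6 CPM and Titan livers 157, 138, 162, 174 and 145 CPM, which overlapped, for a log2 fold change of 0.07 ± 0.09 SE.

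The 6 methyltransferases of the COMPASS family, which all act on H3K4, all had positive log2 fold changes at 19–21 weeks, 3 of them at an unadjusted edgeR p under 0.05 and 1 called, and this group was picked out after the values were seen. Their log2 fold changes between the lines ran from 0.04 (*Kmt2c*, partner of *Kmt2d* at enhancers) to 0.32 (*Setd1a*), with a median of 0.27. At 11 weeks they ran from -0.24 (*Setd1b*) to 0.16 (*Setd1a*), with a median of 0.00. *Kmt2b*, which serves CpG-rich promoters, had 0.31 ± 0.11 SE at 19–21 weeks (edgeR adjusted p = 0.0887), from 37.6 ± 3.47 CPM in control (SD, n = 5) to 46.6 ± 6.19 CPM in Titan. *Kmt2a* (MLL1), known for its control of *Hox* genes, had 0.22 ± 0.11 SE (edgeR adjusted p = 0.232). Without the 5 libraries the 6 values at 19–21 weeks ran from 0.01 to 0.19, with a median of 0.12. None of the 51 enzymes had an unadjusted edgeR p under 0.05 in that comparison, where 1206 of 14036 genes were higher at that limit. Fewer livers entered that fit, and the genes called over all fell too, to 498 from 1257 with all livers.

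**Figure D3:**
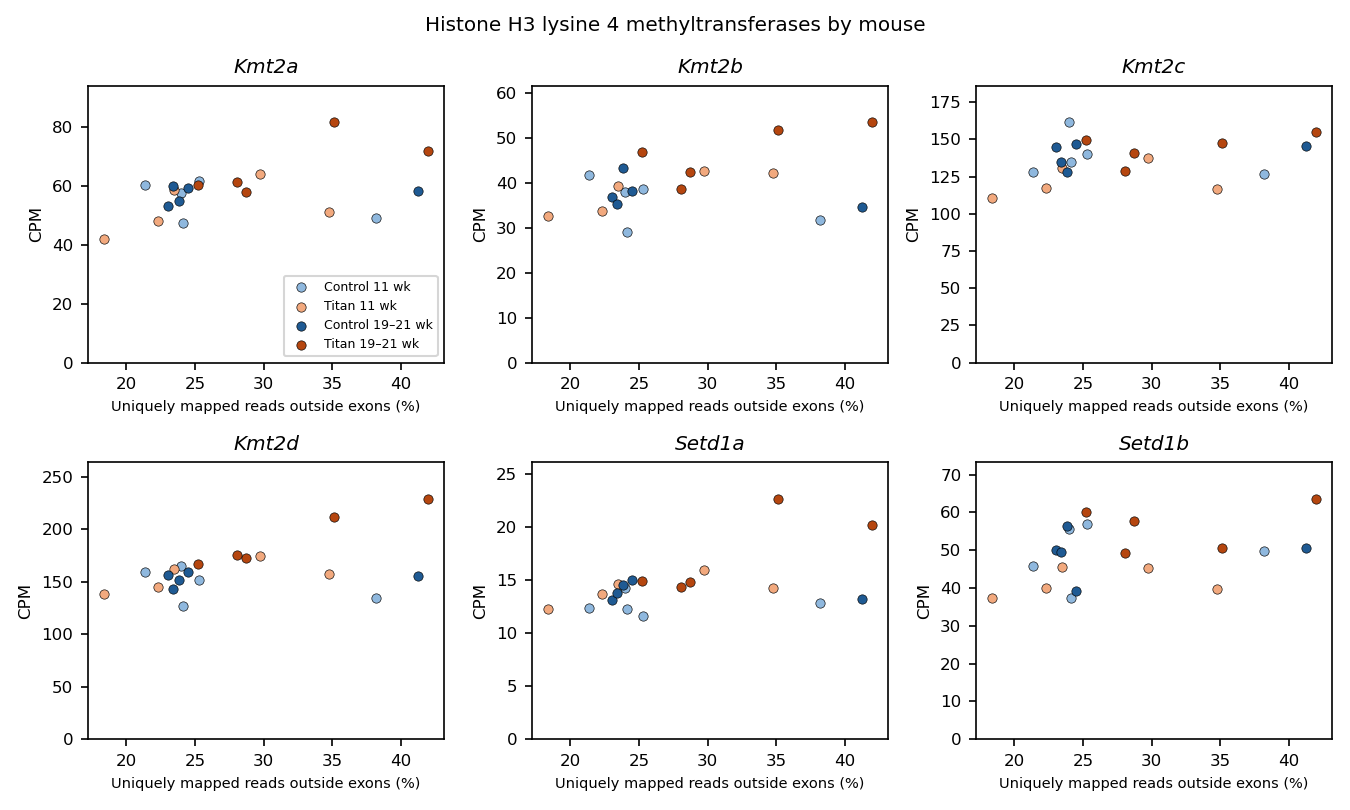
CPM of the 6 H3K4 methyltransferases in each liver (vertical axis, from 0) against the share of uniquely mapped reads outside annotated exons, in percent, coloured by group. The older Titan livers with 35.1% and 41.96% of such reads hold the most *Kmt2a*, *Kmt2b*, *Kmt2d* and *Setd1a*, while the older control liver with 41.2% is near the other control livers.

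Averaged over both ages, 5 enzymes were called, 2 higher and 3 lower, beside 24% of all genes (11.5% higher and 12.5% lower). This comparison uses the same 20 livers as the others and is not a separate observation. *Hdac10* (-0.32 ± 0.07 SE, edgeR adjusted p = 0.00304) and *Ezh1* (-0.25 ± 0.06 SE, 0.00617) were lower, and *Kmt2d* (0.20 ± 0.07 SE, 0.0382) was higher, as at single ages, although without the 5 libraries *Kmt2d* had 0.11 (adjusted p = 0.319). *Setd1a* and *Sirt7* were called in the average alone. *Kat2a* had -0.15 ± 0.07 SE and was not called (edgeR adjusted p = 0.108), but passed with the share of reads outside exons as a covariate (0.0414) or without young control replicate 2 (0.0318).

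*Setd1a*, the catalytic subunit of a complex that trimethylates H3K4 at promoters, rose by 0.24 ± 0.08 SE on the log2 scale (edgeR adjusted p = 0.0361). At 11 weeks control livers held 14.3, 11.6, 12.2, 12.8 and 12.3 CPM and Titan livers 14.3, 12.3, 14.7, 15.98 and 13.7 CPM. At 19–21 weeks control livers held 15.0, 13.1, 13.8, 13.2 and 14.5 CPM and Titan livers 14.8, 14.4, 20.2, 22.7 and 15.0 CPM. The groups overlapped at both ages, and Titan replicates 3 and 4 again stood apart. Without the 5 libraries the value was 0.12 (adjusted p = 0.298). On 51.8% of its exon bases *Setd1a* overlaps *Gm49388* on the same strand, where reads were ambiguous and left uncounted.

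*Sirt7*, a nuclear and nucleolar deacetylase of H3K18, was lower by 0.16 ± 0.06 SE (log2 fold change -0.16, edgeR adjusted p = 0.046), a call that was lost in 18 of 29 alternatives, among them without the 5 libraries (-0.21, adjusted p = 0.0624). Young control livers held 28.1, 31.4, 31.5, 29.2 and 28.2 CPM and young Titan livers 29.0, 21.6, 26.4, 30.1 and 25.2 CPM. Older control livers held 34.5, 34.5, 32.3, 32.9 and 37.4 CPM and older Titan livers 28.8, 32.5, 32.2, 32.5 and 28.0 CPM. The young groups overlapped broadly and the older ones only at their edges.

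**Figure D4:**
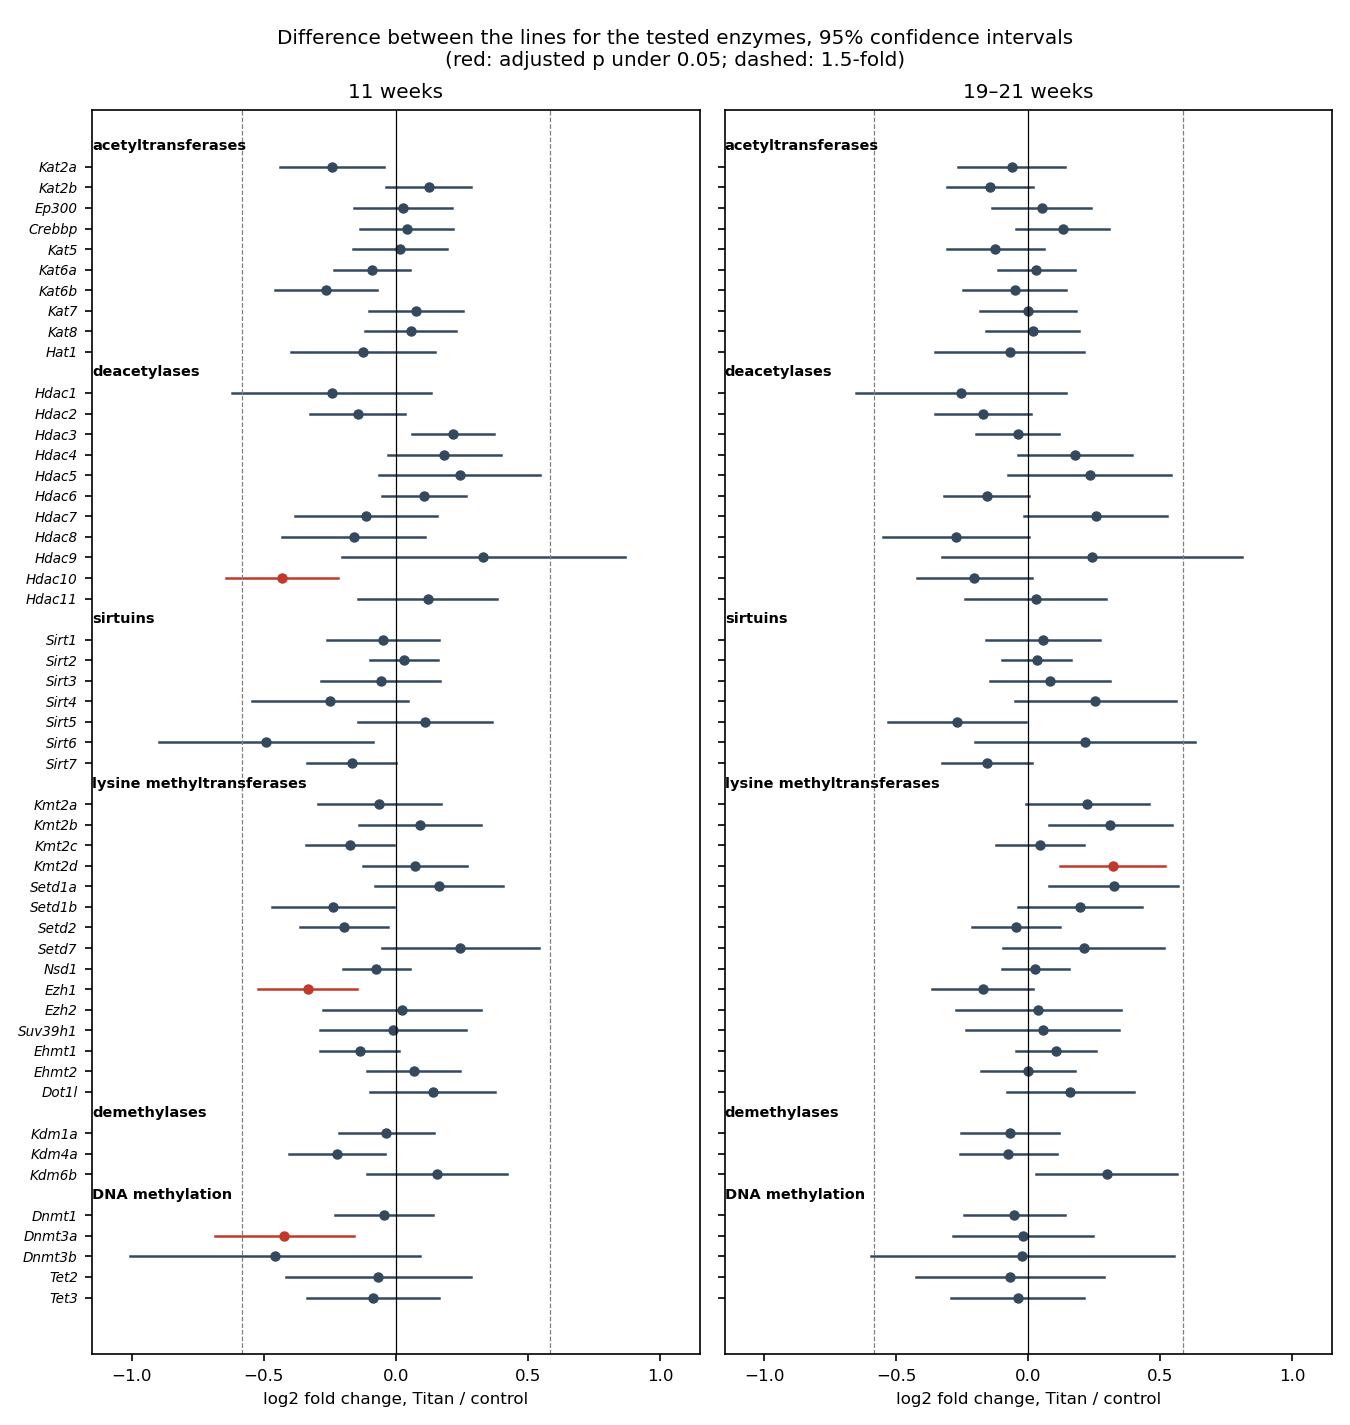
Log2 fold change of Titan against control with its 95% confidence interval for the 51 tested enzymes, by class, at 11 weeks (left) and at 19–21 weeks (right). Red marks adjusted p under 0.05 (*Hdac10*, *Ezh1* and *Dnmt3a* at left, *Kmt2d* at right), and most intervals lie inside the dashed lines at 1.5-fold.

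Of the 10 acetyltransferases none was called at either age, although *Kat6b* was called lower at 11 weeks under 5 of 30 alternatives (adjusted p = 0.0591 in the edgeR fit reported here). Their log2 fold changes ran from -0.27 (*Kat6b*) to 0.12 (*Kat2b*) at 11 weeks and from -0.14 (*Kat2b*) to 0.13 (*Crebbp*) at 19–21 weeks, and all 10 intervals lay within 1.5-fold at both ages, as did those of the 15 lysine methyltransferases and 3 demethylases. The closely related coactivators *Ep300* and *Crebbp* had 0.03 and 0.04 at 11 weeks and 0.05 and 0.13 at 19–21 weeks. *Kat5*, *Kat7*, *Kat8* and *Hat1*, the acetyltransferases of NuA4, HBO1, MSL and newly made histones, had log2 fold changes from -0.13 to 0.08 over both ages. Of the 11 deacetylases *Hdac10* alone was called, at 11 weeks, with a class median of 0.10 at 11 weeks and -0.04 at 19–21 weeks. The class I pair *Hdac1* and *Hdac2* had -0.24 and -0.14 at 11 weeks and -0.26 and -0.17 at 19–21 weeks, while the class IIa pair *Hdac4* and *Hdac5* had 0.18 and 0.24, then 0.18 and 0.23, and none of these was called. None of the 7 sirtuins was called at a single age. The range at 11 weeks was -0.49 (*Sirt6*, adjusted p = 0.0969 in edgeR) to 0.11 (*Sirt5*) and at 19–21 weeks -0.27 (*Sirt5*) to 0.25 (*Sirt4*). Of the 9 methyltransferases outside the COMPASS family, *Ezh1* alone was called, at 11 weeks, and the H3K9 enzymes *Ehmt1*, *Ehmt2* and *Suv39h1*, the H3K36 enzyme *Setd2* and the H3K79 enzyme *Dot1l* had values from -0.20 (*Setd2* at 11 weeks) to 0.16 (*Dot1l* at 19–21 weeks). None of the 3 demethylases was called, and *Kdm6b* (JMJD3), which erases H3K27 methylation, had 0.30 ± 0.13 SE at 19–21 weeks (edgeR adjusted p = 0.159).

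With age, from 11 to 19–21 weeks, no enzyme was called in either line by edgeR, beside 1.25% of all genes in Titan and 0.0871% in control. In Titan 13 of 51 enzymes were higher at an unadjusted edgeR p under 0.05 and none lower, where 8.33% of all genes were higher by that limit, and DESeq2 called *Setd1b* (log2 fold change 0.42, adjusted p = 0.0278). These 13 were *Setd1b*, *Hdac7*, *Kmt2d*, *Ehmt1*, *Kmt2a*, *Kmt2c*, *Sirt6*, *Sirt7*, *Kmt2b*, *Kat6a*, *Setd1a*, *Dnmt3a* and *Kdm6b*, and so held all 6 of the COMPASS family. Without the 5 libraries 4 were higher and 1 lower at that limit, where 5.64% of all genes were higher. Of the COMPASS family, a group picked out after the values were seen, *Setd1b* alone was then still among those higher. The family's median log2 fold change with age in Titan was 0.30 with all livers and 0.17 without the 5 libraries (0.05 to 0.40). The same older Titan livers entered the comparison of the lines at 19–21 weeks, so that this is not a separate observation. The median log2 fold change of the enzymes in Titan was 0.07, with 34 of 51 positive (66.7%), beside 0.02 and 53.9% for all genes.

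*Setd1b* had the smallest p with age in Titan. Young Titan livers held 39.8, 37.3, 45.5, 45.4 and 40.1 CPM and older ones 57.8, 49.1, 63.7, 50.7 and 60.2 CPM, which did not overlap. The log2 fold change was 0.44 ± 0.11 SE (0.20 to 0.67, edgeR adjusted p = 0.0569), and without the 5 libraries it was 0.40 (adjusted p = 0.316). In control livers the means at the 2 ages were 49.1 ± 7.90 and 49.1 ± 6.19 CPM (SD, n = 5 each). *Hdac7*, a class IIa deacetylase known from endothelium, was second with 0.45 ± 0.13 SE (edgeR adjusted p = 0.0913), from 5.15 ± 0.751 to 7.03 ± 0.960 CPM (SD, n = 5 each).

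In control livers 2 enzymes were higher and none lower at an unadjusted edgeR p under 0.05 (3.92% of them, against 6.16% of all genes). *Sirt7* had 0.21 ± 0.08 SE, from 29.7 ± 1.67 to 34.3 ± 1.97 CPM (SD, n = 5 each), with young and older livers apart but an adjusted p of 0.679. *Kat2b* had 0.20 ± 0.08 SE (edgeR adjusted p = 0.679), from 90.8 ± 5.08 to 104 ± 9.66 CPM (SD, n = 5 each), and in Titan its means were 98.9 ± 6.91 and 94.2 ± 8.79 CPM.

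Whether the lines changed unequally with age was asked by an interaction of line and age. It called no enzyme by edgeR and 0.00725% of all genes, and DESeq2 called none of the enzymes either. At an unadjusted edgeR p under 0.05, 5 enzymes were higher and 4 lower (17.6% of them, against 8.93% of all genes). Without the 5 libraries 1 was higher and 2 lower at that limit, where 516 of 14036 genes were higher. *Setd1b* had the smallest p, at 0.43 ± 0.16 SE (edgeR adjusted p = 0.398). *Sirt6*, an H3K9 deacetylase, followed at 0.71 ± 0.28 SE (edgeR adjusted p = 0.442) with 18 to 61 reads per mouse. Its means were 2.70 ± 0.407 and 1.94 ± 0.413 CPM in young control and Titan livers and 2.41 ± 0.506 and 2.83 ± 0.697 CPM in older ones (SD, n = 5 each).

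Ratios of related enzymes within each liver, on the scale of CPM per kilobase, describe which form dominated. *Kat2a* was at 0.303 ± 0.0463 of *Kat2b* in young control and 0.235 ± 0.0282 in young Titan livers (SD, n = 5 each), and at 0.261 ± 0.0302 and 0.275 ± 0.0324 in the older groups. *Kmt2c* was at 0.924 ± 0.0929 of *Kmt2d* in young control, 0.775 ± 0.0262 in young Titan, 0.897 ± 0.0385 in older control and 0.750 ± 0.0895 in older Titan livers. The lowest control liver stood at 0.787 at 11 weeks and 0.829 at 19–21 weeks, the highest Titan liver at 0.793 and 0.881, so that the lines overlapped at both ages. *Ezh1* exceeded *Ezh2* in every group, by a mean of 2.07-fold (young Titan) to 2.78-fold (older control), and *Kat6a* exceeded *Kat6b* by 3.16-fold to 3.65-fold. *Hdac1* stood at 0.157 to 0.176 of *Hdac2*, *Hdac4* at 0.220 to 0.274 of *Hdac5*, *Ep300* at 0.616 to 0.651 of *Crebbp*, and *Ehmt1* at 0.502 to 0.630 of *Ehmt2* as group means. The group means were 0.798 to 0.891 for *Kmt2a* over *Kmt2b*, 0.466 to 0.605 for *Setd1a* over *Setd1b* (counted on part of its exons), 0.752 to 0.938 for *Tet2* over *Tet3*, and 1.52 to 2.19 for *Dnmt3a* over *Dnmt3b*. These ratios are descriptions with no test.

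The partners of these enzymes were read from 8 lists of 200 genes in all, and most moved as little. At 11 weeks 2.38% to 32% of a list was called, against 14.9% of all genes. At 19–21 weeks the shares were 0% to 13.3%, against 9.12%. Partner calls were not followed under the alternatives. Among 42 subunits of acetyltransferase complexes, 42 were tested and 1 was called at each age, both higher. *Usp22*, the deubiquitinase of SAGA, was called at 11 weeks (50.3 ± 7.41 against 36.6 ± 4.08 CPM, SD, n = 5 each, log2 fold change 0.46 ± 0.11 SE). It had 0.29 ± 0.11 SE at 19–21 weeks. *Ing4*, a reader of H3K4 methylation in the HBO1 complex, was called at 19–21 weeks (2.79 ± 0.877 against 1.39 ± 0.338 CPM), with groups that overlapped. At 11 weeks *Ing4* went the other way, with -0.34 ± 0.24 SE. No other subunit of SAGA or ATAC on the list was called at a single age. In the average over both ages 1 of the 42 was called higher and 2 lower (7.14%, against 24% of all genes).

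Of 33 deacetylase corepressor subunits 32 were tested, with 2 called higher and 2 lower at 11 weeks and 1 higher and 2 lower at 19–21 weeks. *Chd3*, a remodelling ATPase of the NuRD complex, was lower at both ages, with 46.7 ± 5.64 against 102.5 ± 25.6 CPM at 11 weeks (log2 fold change -1.13 ± 0.20 SE, edgeR adjusted p = 0.000624) and 57.1 ± 14.7 against 103 ± 29.5 CPM at 19–21 weeks (-0.85 ± 0.20 SE, 0.0111). *Gatad2a*, another NuRD subunit, was higher at both ages (0.49 ± 0.10 SE, then 0.35 ± 0.10 SE), with groups that overlapped at neither age. *Hmg20b* of the CoREST complex was called higher at 11 weeks (0.36 ± 0.09 SE) and had 0.20 ± 0.09 SE at 19–21 weeks. *Mta3* of NuRD was called lower at 19–21 weeks (-0.31 ± 0.09 SE) and had 0.04 ± 0.08 SE at 11 weeks. The size of the change in *Chd3* exceeded that of every enzyme of the 51, of which the largest was -0.49 for *Sirt6*.

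Of 29 partners of methyltransferases 27 were tested, with 2 lower at 11 weeks and 1 lower at 19–21 weeks. *Rbbp4*, a histone-binding subunit shared by Polycomb and NuRD, was lower at 11 weeks (112 ± 10.8 against 147 ± 12.5 CPM, log2 fold change -0.40 ± 0.08 SE, edgeR adjusted p = 0.0014). It had -0.03 ± 0.08 SE at 19–21 weeks. *Dpy30*, a core subunit of the COMPASS complexes, was lower at 19–21 weeks (12.7 ± 0.465 against 16.1 ± 1.21 CPM, -0.35 ± 0.10 SE) and had -0.09 ± 0.10 SE at 11 weeks. Of 24 other lysine methyltransferases 23 were tested and none was higher, with 2 lower at 11 weeks and 1 at 19–21 weeks. *Smyd2*, which methylates p53 and other proteins, was lower at both ages (-0.34 ± 0.11 SE and -0.41 ± 0.11 SE). *Nsd3*, a relative of *Nsd1*, was lower at 11 weeks (-0.44 ± 0.14 SE) and had 0.09 ± 0.14 SE at 19–21 weeks. Of 9 arginine methyltransferases 8 were tested, and *Prmt2* alone was called, higher at 11 weeks from 0.542 ± 0.0611 to 0.974 ± 0.232 CPM. At 19–21 weeks its log2 fold change was 0.07 ± 0.28 SE.

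Of 20 other lysine demethylases 19 were tested, with 1 higher and 3 lower at 11 weeks and 1 higher at 19–21 weeks. *Kdm2b*, an H3K36 demethylase that recruits a Polycomb complex to CpG islands, was higher at both ages, with 13.4 ± 0.655 against 9.15 ± 1.38 CPM (log2 fold change 0.55 ± 0.12 SE) and 13.1 ± 1.18 against 9.29 ± 1.64 CPM (0.50 ± 0.12 SE), and with groups that did not overlap. *Kdm5b*, an H3K4 demethylase, was lower at 11 weeks (-0.61 ± 0.14 SE), as was *Kdm4c* (-0.29 ± 0.08 SE). At 19–21 weeks they had -0.31 ± 0.15 SE and 0.004 ± 0.08 SE, and neither was called. Of 18 other factors of DNA methylation 15 were tested, with 2 lower at each age. *Cxxc5*, a CpG-binding zinc finger protein, was lower at both ages (-0.29 ± 0.09 SE and -0.33 ± 0.09 SE). *Gadd45g*, a stress-induced gene, was called lower at 19–21 weeks (-2.25 ± 0.68 SE) and had -1.425 ± 0.61 SE at 11 weeks, not called.

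The 25 genes of cofactor supply were all tested and held more calls at 11 weeks than any other list. At that age 5 were higher and 3 lower (32%, against 14.9% of all genes). At 19–21 weeks 2 were lower (8%, against 9.12% of all genes). *Nampt*, the rate-limiting enzyme of NAD salvage and so of the cofactor of sirtuins, was higher at 11 weeks, with 82.9 ± 8.39 against 54.3 ± 7.29 CPM (log2 fold change 0.61 ± 0.14 SE, edgeR adjusted p = 0.00477), and had 0.39 ± 0.14 SE at 19–21 weeks (0.0923). *Pdhb*, of the pyruvate dehydrogenase complex that makes acetyl-CoA, was higher at 11 weeks (0.53 ± 0.13 SE) and had -0.09 ± 0.13 SE at 19–21 weeks. *Acss2*, which makes acetyl-CoA from acetate, was called lower at 19–21 weeks, with 158 ± 88.8 against 360 ± 91.3 CPM (-1.18 ± 0.31 SE, edgeR adjusted p = 0.0186), and its value at 11 weeks was -0.83 ± 0.30 SE (0.0728).

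Markers of other liver cells were read beside these results. Of all genes, 14.9% were called at 11 weeks and 9.12% at 19–21 weeks. The 7 markers of sinusoidal endothelial cells, among them *Stab2* and *Lyve1*, summed to 330.9 to 385 CPM in young control and 280.2 to 330.8 CPM in young Titan livers, and to 344 to 372 and 279 to 358 CPM in the older groups, and 2 of the 7 were called lower at each age. The 10 markers of Kupffer cells and macrophages summed to 186 to 255 and 182 to 262.5 CPM in the young groups and 127 to 278 and 125 to 366 CPM in the older ones, with none called. The 8 stellate cell markers summed to 411 to 461 and 401 to 544 CPM, then 367 to 629 and 471 to 564 CPM, and 1 was called higher at 11 weeks. The 6 cholangiocyte markers summed to 14.8 to 64.0 CPM over all livers, the 5 neutrophil markers to 0.451 to 3.12 CPM, the 6 erythroid markers to 119 to 311 CPM and the 11 proliferation markers to 23.1 to 58.5 CPM. Of these lists, 1 erythroid marker was called lower at each age and 1 proliferation marker higher at 19–21 weeks, and the 1 tested marker of T, B and NK cells was called higher at both ages. No listed gene was at 0 in all 20. The part of these cells in the values of the enzymes was not tested.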

How the data were processed

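Liver RNA of 20 mice was depleted of rRNA and made into directional libraries. The authors aligned the reads to GRCm38 with STAR 2.5.3a, and the deposited files hold raw counts per gene from STAR, for both strands and for each strand. The strand that held 96.8% to 97.5% of the stranded counts was used. Reads outside annotated exons (18.4% to 41.96% of uniquely mapped reads, introns included) and reads shared by overlapping genes (1.53% to 2.38%) carry no gene and were left out of library sizes.

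Symbols were matched through GENCODE M21. As in the study, 1562 Y-linked genes and 91 genes that encode histones were removed. Counts were filtered with filterByExpr, scaled by TMM and fitted over all 4 groups with edgeR 4.0.16 (R 4.3.3, quasi-likelihood F test), with Benjamini–Hochberg adjustment over 13784 genes and a threshold of 0.05. With 6794935 to 23295028 gene reads per mouse, an enzyme such as *Sirt6* rested on 18 to 61 reads. P-values set a difference between groups against the spread among the mice within groups.

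The enzymes and lists were chosen with earlier results of these data known. *Kat2a*, every enzyme called (or, where none was, the 2 with the smallest p), the highest and lowest of each class, 12 pairs of paralogues and, per list of partners, the 2 called genes of lowest p, higher and lower, are named, and others were chosen after their values were seen. The values of 1 gene that this rule names are not reported here. Alternatives were DESeq2 1.42.0, RLE factors, other filters, both strands, fewer samples, a replicate block, the removed genes kept, a covariate and leaving out mice. Leaving out the 5 libraries with over 33.3% of reads outside exons was chosen after seeing the data. Promoter sequences are from RefSeq (GRCm38.p6).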

Additional observations from a re-analysis of the deposited data

Results flagged for a closer look

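In 84 groups of 5 mice, over 21 enzymes named with values, 4 held a mouse whose gap to the nearest other mouse was large against the range of its group. Chance alone gives such a gap in about 1 group in 20, which is 5%. *Hdac7* was lowest in older Titan replicate 3, at 5.35 CPM, with the next mouse at 7.23 CPM. *Kdm1a* was highest in young control replicate 5, at 25.2 CPM, with the next at 23.4 CPM. *Sirt3* was highest in young control replicate 2, at 74.1 CPM, with the next at 55.0 CPM. *Sirt6* was highest in older Titan replicate 1, at 4.08 CPM, with the next at 2.55 CPM.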

How the results depend on the processing

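The log2 fold changes of *Kat2a* between the lines, and of each called enzyme in the comparison that called it, kept their sign under all alternatives run. The median over the enzymes did not, and was -0.01 at 19–21 weeks without Titan replicate 3 or 4. At 11 weeks *Hdac10* stayed below the threshold of 0.05 in 30 of 30 alternatives (log2 fold change -0.45 to -0.40, adjusted p 0.0034 to 0.0369), *Ezh1* in 29 and *Dnmt3a* in 23. *Kmt2d* at 19–21 weeks did so in 18 of 30 (0.17 to 0.36, adjusted p 0.0183 to 0.408). In the average over ages *Hdac10* and *Ezh1* did so in 29 of 29, *Kmt2d* in 16, *Setd1a* in 15 (adjusted p 0.0188 to 0.298) and *Sirt7* in 11 (0.0221 to 0.127). The last 3 calls were each lost without some single mice, and also with all mice kept but no filter on low counts. The cause was not tested. Enzymes called higher at 11 weeks numbered 1 in place of 0 with DESeq2, RLE factors, at least 10 counts in every mouse or both strands. Those called higher at 19–21 weeks numbered 0 in place of 1 with no filter, only the groups compared, the replicate block, the share of reads outside exons as a covariate, or the 5 libraries left out. In the average over ages they numbered 0 in place of 2 with no filter, the covariate or the 5 libraries left out, and 1 with the replicate block. Enzymes called with age in Titan numbered 1 in place of 0 with DESeq2. Leaving out each mouse in turn gave 0 to 1 higher and 2 to 4 lower at 11 weeks, 0 to 3 higher at 19–21 weeks, 0 to 5 higher and 2 to 5 lower in the average, and 0 to 2 with age in Titan. *Kmt2d* at 19–21 weeks lost its call without Titan replicate 3 (0.24, adjusted p = 0.123) or 4 (0.28, 0.102), or without any 1 of the older control mice (0.0568 to 0.0868). With the replicate block it had 0.32 and an adjusted p of 0.0695. Mice of the same number showed no sign of deviating together (30 pairs, correlations -0.144 to 0.175, 4 over 0.1). Pairs of different number were alike (120 pairs, -0.178 to 0.190, 13 over 0.1). These correlations run over all tested genes and cannot exclude a link in some of them. Depth limits *Sirt6*, *Hdac1*, *Hdac9* and *Uhrf1* most.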
